A study of Mus musculus with 8 samples.

Results

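The 10 genes described here form the core of transforming growth factor beta (TGF-beta) signaling: the ligands Tgfb1, Tgfb2 and Tgfb3, the receptors Tgfbr1, Tgfbr2 and Tgfbr3, and the SMADs Smad2, Smad3, Smad4 and Smad7. They were picked by symbol for their role in the pathway, with earlier results of these data known. All 10 were found among the 35539 Ensembl gene IDs of the table, and all 10 passed the filter on low values, a mean of at least 1 TPM (transcripts of a gene, corrected for its length, relative to a fixed total), as did 14835 genes in all. RNA was measured in 8 frozen bulk mouse mammary tumors. Tumors 1 to 4 (control) grew in Brca1f/f;Trp53+/- mice. There, Cre driven by the β-lactoglobulin promoter (Blg-Cre), active in mammary epithelium during lactation, deletes floxed Brca1 on a background with 1 intact copy of Trp53. Tumors 5 to 8 (HMMR-Tg) came from mice with the same Brca1, Trp53 and Blg-Cre alleles and, on both copies of the Rosa26 locus, a human HMMR cDNA that Cre switches on. The groups were age-matched, the mice were of mixed background, and the controls carry the Brca1 and Trp53 alleles too, so no group had intact Brca1. HMMR is a receptor for hyaluronan and a protein of the mitotic spindle, and the comparison asks what differs in tumors that form when it is overexpressed.

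TGF-beta ligands are secreted in a latent form, held in the matrix by latency proteins, and are released by integrins and proteases. Released ligand binds the type II receptor, which activates the type I receptor; the type I receptor phosphorylates SMAD2 and SMAD3, these enter the nucleus with SMAD4, and SMAD7 is an induced inhibitor that acts back on the receptor. In mammary epithelium the pathway restrains growth, and in carcinomas it is also known for driving mesenchymal features and for acting on fibroblasts, vessels and immune cells.

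TPM states each gene per length, relative to the whole RNA of its tumor, so levels of different genes can be set beside each other, but it keeps no sequencing depth and the depth behind each value is unknown. Where single tumors are not given, the mean ± SD (n = 4 tumors) of each genotype is. A difference is the HMMR-Tg mean less the control mean of log2(TPM + 1), which understates changes of low genes. Which mouse each tumor came from is not in the labels, so a p-value covers no more than the variation among these tumors. The epithelial markers Epcam (477 to 1924 TPM) and Krt8 (351 to 1896 TPM) were high in every tumor, as the tissue label implies. Tumors 1, 3 and 6 stood apart by skeletal muscle markers, whose summed level was 405, 134 and 474 TPM in these tumors and 14.1 to 42.9 TPM in the other 5. Results were therefore also computed without these 3 tumors. In bulk tumors fewer cells of a type and less RNA per cell cannot be told apart.

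All 10 genes were expressed in every tumor. They were compared between genotypes gene by gene, and the group as a whole was not tested. No member passed the test across all genes (limma, Benjamini-Hochberg adjusted p = 1.00 for each of the 10), against a background of 0.0607% of tested genes called higher and 0% called lower, which is 9 and 0 genes. At an unadjusted limma p under 0.05, 3 members were higher in HMMR-Tg tumors (Smad3, Tgfb1 and Smad7) and 0 were lower, where 1.62% of all tested genes were higher and 1.83% were lower. For 1 member, Smad3, every HMMR-Tg tumor lay above every control, against 1.04% of tested genes that were higher without overlap and 1.19% that were lower. The mean was higher in HMMR-Tg tumors for 6 members and lower for 4, with a median difference of 0.07, beside -0.01 and 48.7% higher over all tested genes.

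**Figure D1:**
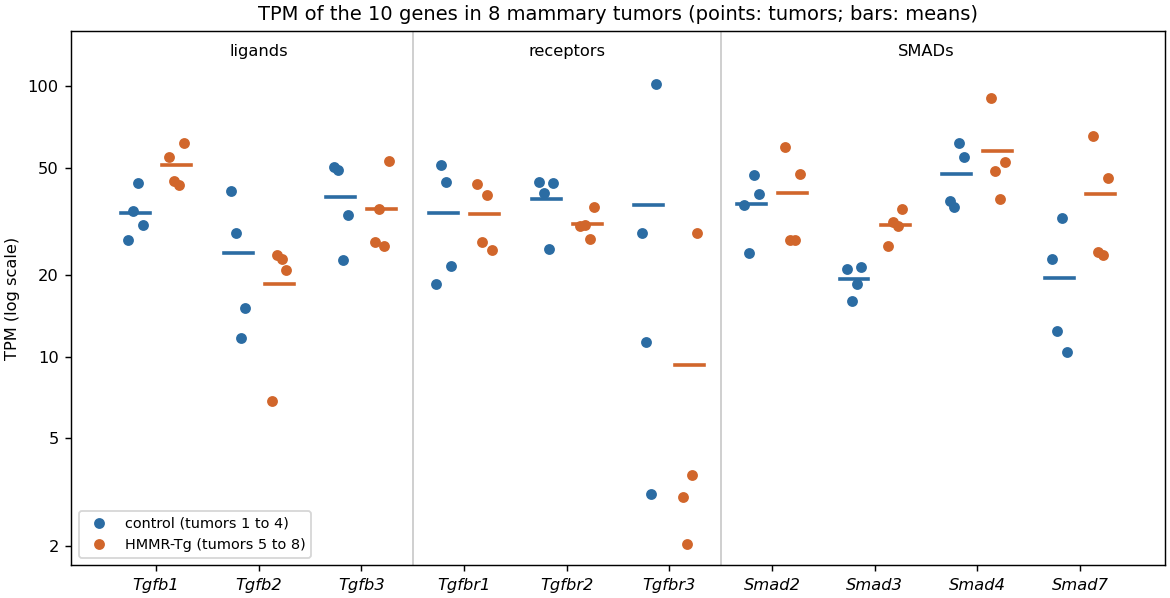
TPM of each of the 10 genes in the 8 tumors on a log axis (points: single tumors in the order of their numbers; bars: genotype means; blue: control; orange: HMMR-Tg). Smad3 is the gene whose 4 HMMR-Tg tumors (25.6 to 35.1 TPM) all lie above the 4 control tumors (16.1 to 21.5 TPM), and Tgfbr3 has the widest spread, from 2.03 to 102 TPM.

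Tgfb1 (ENSMUSG00000002603; chromosome 7, 26472021 to 26490096, mm9) encodes the ligand most widely made by epithelial, stromal and immune cells. It stood at 27.0, 34.7, 43.9 and 30.8 TPM in control tumors 1 to 4 and at 55.0, 44.6, 43.3 and 61.8 TPM in HMMR-Tg tumors 5 to 8. The HMMR-Tg tumors were the higher group and overlapped the controls only because control tumor 3 lay just above HMMR-Tg tumor 7. The means were 34.1 ± 7.24 and 51.2 ± 8.81 TPM, a difference of 0.58 (SE 0.22, 95% interval 0.08 to 1.08). Its unadjusted limma p was 0.0282, its adjusted p 1.00, and an exact permutation test of the 8 tumors gave p = 0.0571, two-sided. Leaving out 1 tumor at a time kept the difference between 0.48 and 0.70, but its unadjusted p was 0.0618 to 0.0781 without tumor 1, 4, 5 or 8. Without tumors 1, 3 and 6 the difference was 0.67 (limma, unadjusted p = 0.0578).

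Tgfb2 (ENSMUSG00000039239; chromosome 1, 188447065 to 188529871), the isoform that binds the type II receptor well only with the help of the co-receptor Tgfbr3, was the most variable ligand. It stood at 40.9, 28.8, 11.7 and 15.2 TPM in control tumors and at 6.85, 23.8, 23.0 and 21.0 TPM in HMMR-Tg tumors. The highest value was in control tumor 1 and the lowest in HMMR-Tg tumor 5, and the groups overlapped. The difference of -0.33 (SE 0.48, 95% interval -1.40 to 0.74) lay within the spread between tumors (limma, unadjusted p = 0.506) and became 0.07 without tumor 5.

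Tgfb3 (ENSMUSG00000021253; chromosome 12, 87397694 to 87419991), a ligand known in the mammary gland for the cell death of involution, stood at 50.6, 49.3, 22.7 and 33.6 TPM in control tumors and at 26.5, 35.2, 25.7 and 53.0 TPM in HMMR-Tg tumors. Both groups held high and low tumors. The difference was -0.14 (SE 0.33, 95% interval -0.88 to 0.59; limma, unadjusted p = 0.674), and it was close to 0 without tumor 1.

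The ligands summed to 97.3 ± 21.3 TPM in control tumors and to 105 ± 21.6 TPM in HMMR-Tg tumors, with overlap. Within that sum, Tgfb1 took 22.8%, 30.8%, 56.0% and 38.7% in control tumors and 62.3%, 43.0%, 47.1% and 45.5% in HMMR-Tg tumors. Tgfb1 was thus the largest ligand share in all 4 HMMR-Tg tumors, and in the controls it was so only in tumor 3, while Tgfb3 was the largest in tumors 1, 2 and 4. The mean Tgfb1 share of 37.1% ± 14.2 and 49.5% ± 8.69 overlapped between genotypes through tumor 3.

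The promoters of Tgfb1 and Tgfb2 are shown because these ligands varied differently over the tumors and their start regions differ in kind. Of the 10 genes, 5 matched a RefSeq promoter entry (GRCm38.p6): Tgfb1, Tgfb2, Tgfbr1, Tgfbr2 and Smad3. Each sequence is the 250 bases before the annotated start, 5′ to 3′ on the gene's strand. The motifs searched, on both strands, were the TATA box (TATAAA), the GC box (GGGCGG), the AP-1 site (TGANTCA) and the SMAD-binding CAGA box (CAGAC). Capitals mark GC boxes in Tgfb1 and the TATA box in Tgfb2, and 0 matches of another motif overlapped them.
Tgfb1, chr7:25686752-25687001, plus strand: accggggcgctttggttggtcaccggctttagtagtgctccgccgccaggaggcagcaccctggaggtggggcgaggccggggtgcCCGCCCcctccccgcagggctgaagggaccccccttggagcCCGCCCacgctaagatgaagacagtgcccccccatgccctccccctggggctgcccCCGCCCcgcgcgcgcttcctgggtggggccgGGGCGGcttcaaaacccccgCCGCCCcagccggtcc
Tgfb2, chr1:186705990-186706239, minus strand: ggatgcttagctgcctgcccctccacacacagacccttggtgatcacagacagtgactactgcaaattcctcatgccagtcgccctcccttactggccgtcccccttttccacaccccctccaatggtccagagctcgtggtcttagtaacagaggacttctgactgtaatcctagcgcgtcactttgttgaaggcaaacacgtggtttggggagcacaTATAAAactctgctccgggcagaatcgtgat
The Tgfb1 window was 75.2% G and C, held 5 GC boxes and had no TATA box. The Tgfb2 window was 53.6% G and C, held 1 TATA box, which begins at position -31 from the start, and 0 GC boxes. A GC box was present in 32.7% and a TATA box in 12.4% of 32851 mouse promoter windows of the same length. The CAGA box, found in 42.2% of windows, occurred 2 times in Tgfb2 and 0 times in Tgfb1, and the AP-1 site, found in 6.75%, occurred in none of the matched windows. These matches describe the letters only.

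Tgfbr1 (ENSMUSG00000007613; chromosome 4, 47366094 to 47427803) encodes the type I receptor kinase. It stood at 18.6, 51.4, 44.3 and 21.7 TPM in control tumors and at 43.5, 26.5, 39.7 and 24.8 TPM in HMMR-Tg tumors. Low and high tumors occurred in both genotypes. The means of 34.0 ± 16.3 and 33.6 ± 9.34 TPM gave a difference of 0.07 (SE 0.36, 95% interval -0.74 to 0.88; limma, unadjusted p = 0.849).

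Tgfbr2 (ENSMUSG00000032440; chromosome 9, 115993415 to 116084383) encodes the type II receptor, which binds the ligand first. It stood at 44.2, 40.3, 25.0 and 44.0 TPM in control tumors and at 30.4, 30.7, 27.3 and 35.7 TPM in HMMR-Tg tumors. Of the 10 genes it varied least, with a highest level 1.77 times the lowest, and the HMMR-Tg tumors all lay below the 3 highest controls but above tumor 3. The difference was -0.27 (SE 0.24, 95% interval -0.80 to 0.26; limma, unadjusted p = 0.280).

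Tgfbr3 (ENSMUSG00000029287; chromosome 5, 107535589 to 107718648) encodes betaglycan, a co-receptor without a kinase that presents ligand to the type II receptor. It stood at 28.7, 11.3, 3.12 and 102 TPM in control tumors and at 3.02, 2.03, 3.67 and 28.6 TPM in HMMR-Tg tumors. Its highest level was 50.2 times its lowest, and its log2 SD over the 8 tumors, 1.84, was at percentile 98.7 of all tested genes. In each genotype at least 1 tumor was near 3 TPM and at least 1 near 29 TPM, so the groups overlapped. The difference of -1.63 was the largest of the 10 genes but had an SE of 0.99 and a 95% interval of -3.86 to 0.59 (limma, unadjusted p = 0.133; exact permutation p = 0.229).

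Single tumors decided the size of that difference. It was -0.84 without control tumor 4, -2.39 without control tumor 3 (limma, unadjusted p = 0.026) and -2.37 without HMMR-Tg tumor 8 (unadjusted p = 0.0316), with adjusted p of at least 0.784 under every alternative. As a share of the summed receptor level, Tgfbr3 ranged from 3.43% in HMMR-Tg tumor 6 to 60.8% in control tumor 4. The receptors summed to 109 ± 41.4 TPM in control tumors and to 74.0 ± 12.5 TPM in HMMR-Tg tumors, with overlap.

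**Figure D2:**
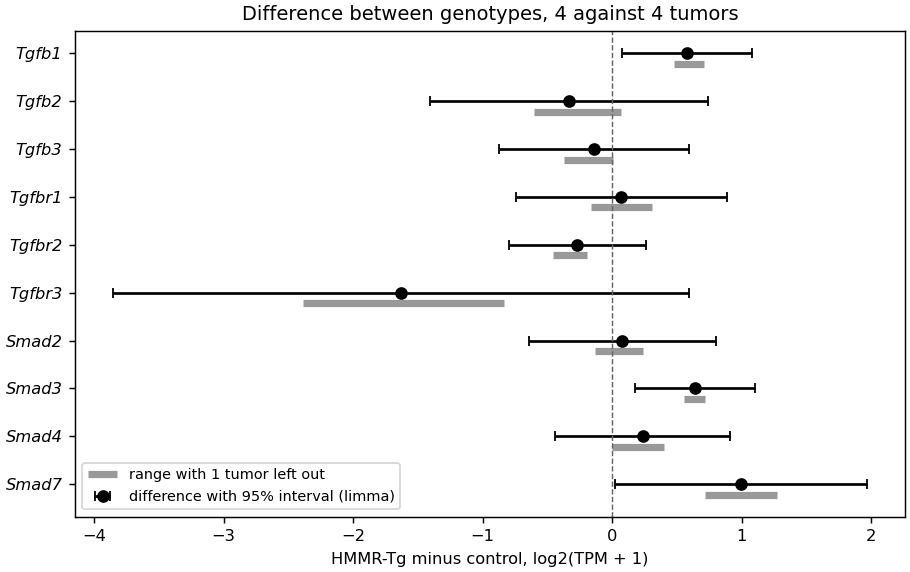
Difference of each gene between HMMR-Tg and control tumors on the log2(TPM + 1) scale, with the 95% interval from limma (black) and the range over fits that leave out 1 tumor (grey). The intervals of Tgfb1, Smad3 and Smad7 lie above 0 before adjustment over all genes, and that of Tgfbr3, from -3.86 to 0.59, is the widest.

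Smad3 (ENSMUSG00000032402; chromosome 9, 63494574 to 63605801) encodes a receptor-activated SMAD that binds DNA directly. It stood at 21.2, 16.1, 18.6 and 21.5 TPM in control tumors and at 25.6, 31.4, 30.5 and 35.1 TPM in HMMR-Tg tumors. Every HMMR-Tg tumor was above every control tumor. The means were 19.3 ± 2.53 and 30.7 ± 3.91 TPM, a difference of 0.64 (SE 0.21, 95% interval 0.17 to 1.10). Its unadjusted limma p of 0.0121 ranked 103 of 14835 genes and its adjusted p was 1.00, while the exact permutation test gave 0.0286, the smallest that 70 arrangements allow. Leaving out 1 tumor at a time kept it between 0.56 and 0.72 with an unadjusted p under 0.05 each time. Without tumors 1, 3 and 6 it was 0.67 with an unadjusted p of 0.0764.

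The Smad3 promoter is shown because Smad3 was the member whose genotypes did not overlap. It is taken from the same RefSeq table over 250 bases before the start, with GC boxes in capitals.
Smad3, chr9:63757995-63758244, minus strand: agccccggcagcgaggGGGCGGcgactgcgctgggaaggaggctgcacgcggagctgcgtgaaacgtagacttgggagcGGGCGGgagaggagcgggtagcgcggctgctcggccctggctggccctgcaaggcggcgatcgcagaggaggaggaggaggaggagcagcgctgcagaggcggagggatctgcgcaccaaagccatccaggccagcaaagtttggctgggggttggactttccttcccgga
The window was 69.2% G and C and held 2 GC boxes, 0 TATA boxes and 0 CAGA boxes, and 0 matches of another motif overlapped the capitals. It is thus of the GC-rich kind seen at Tgfb1 and unlike Tgfb2. The first of 2 Tgfbr1 starts also held 2 GC boxes and 0 TATA boxes. The other Tgfbr1 start and the Tgfbr2 start held 0 GC boxes and 0 TATA boxes. Whether these letters bear on the levels was not tested.

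Smad7 (ENSMUSG00000025880; chromosome 18, 75527183 to 75555589), the inhibitory SMAD and itself a target of the pathway, stood at 23.1, 12.5, 32.6 and 10.5 TPM in control tumors and at 65.5, 24.4, 23.8 and 45.9 TPM in HMMR-Tg tumors. Tumors 5 and 8 were the highest of all, and tumors 6 and 7 lay between control tumors 1 and 3. The means were 19.6 ± 10.2 and 39.9 ± 19.9 TPM, a difference of 0.99 (SE 0.43, 95% interval 0.02 to 1.97; limma, unadjusted p = 0.0461, adjusted p = 1.00; exact permutation p = 0.114). Leaving out tumor 5 gave 0.72, and leaving out tumors 1, 3 and 6 gave 1.78 (limma, unadjusted p = 0.00753). Its unadjusted p was 0.104 to 0.132 without tumor 2, 4, 5 or 8.

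Smad2 (ENSMUSG00000024563; chromosome 18, 76401234 to 76465385), the other receptor-activated SMAD of this branch, stood at 36.3, 24.3, 47.0 and 39.9 TPM in control tumors and at 59.8, 27.0, 26.9 and 47.4 TPM in HMMR-Tg tumors. The difference of 0.08 (SE 0.32, 95% interval -0.64 to 0.80; limma, unadjusted p = 0.812) was far inside the spread. Smad4 (ENSMUSG00000024515; chromosome 18, 73798663 to 73863434), the common partner of the receptor-activated SMADs and a frequently lost tumor suppressor in other carcinomas, stood at 37.8, 35.8, 62.0 and 54.7 TPM in control tumors and at 90.6, 48.7, 38.4 and 52.6 TPM in HMMR-Tg tumors. Its difference was 0.23 (SE 0.30, 95% interval -0.44 to 0.91; limma, unadjusted p = 0.456), and without tumor 5 it was -0.01. Tumor 5 held the highest level of Smad2, Smad4 and Smad7 alike.

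The share of Smad2 among the SMADs did not overlap between genotypes, while its level did. Of the summed level of the 4 SMADs, Smad2 took 30.7%, 27.4%, 29.4% and 31.5% in control tumors and 24.8%, 20.5%, 22.5% and 26.2% in HMMR-Tg tumors. Every HMMR-Tg tumor was below every control tumor, with means of 29.7% ± 1.80 and 23.5% ± 2.48. Shares of summed log2(TPM + 1) values did not overlap either (26.9% ± 0.708 and 24.8% ± 0.781), but they use the same values and are no separate support. A share falls when the others rise, and the mean shares of Smad3 (16.2% and 19.9%) and Smad7 (15.5% and 22.7%) were higher in HMMR-Tg tumors, with overlap for both. The SMADs summed to 123 ± 29.4 TPM in control tumors and to 168 ± 55.5 TPM in HMMR-Tg tumors, with overlap. No test was made on these shares.

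**Figure D3:**
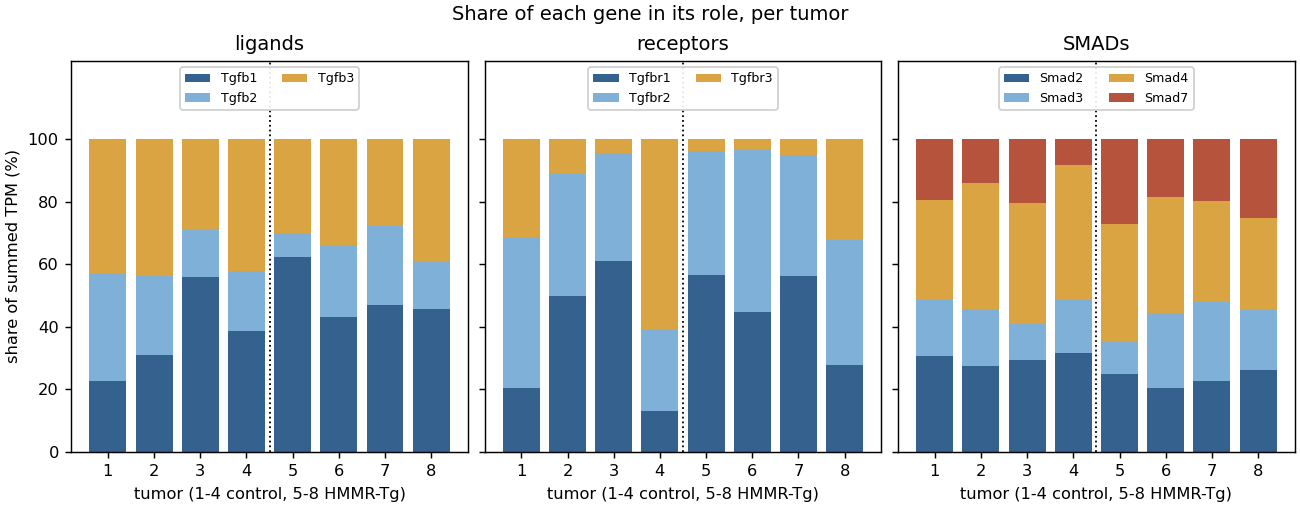
Share of each ligand, receptor and SMAD in the summed TPM of its role, per tumor (stacked bars, 100% per tumor; tumors 1 to 4 control, 5 to 8 HMMR-Tg). The Smad2 share lies between 27.4% and 31.5% in control and between 20.5% and 26.2% in HMMR-Tg tumors, and the Tgfbr3 share runs from 3.43% to 60.8%.

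By mean level over the 8 tumors the order was Smad4 (52.6 TPM), Tgfb1 (42.6), Smad2 (38.6), Tgfb3 (37.1), Tgfbr2 (34.7), Tgfbr1 (33.8), Smad7 (29.8), Smad3 (25.0), Tgfbr3 (22.8) and Tgfb2 (21.4 TPM). No neighbours in this order kept their places in all 8 tumors. Tgfbr3 was above Tgfb2 in only 2 of 8 tumors, 4 and 8, with a geometric mean ratio of 0.50, so its place rests on tumor 4. The most even neighbours were Tgfb1 and Smad2, Smad2 and Tgfb3, Tgfb3 and Tgfbr2, Tgfbr2 and Tgfbr1, and Smad7 and Smad3, each with the higher gene ahead in 4 of 8 tumors. Orders that held in 8 of 8 tumors were Smad4 over Smad2, Smad7 and Smad3, Tgfb1 over Smad3, and Tgfb3 and Tgfbr2 over Tgfb2. All members but Tgfbr3 differed from their lowest to their highest tumor by between 1.77 and 6.26 times.

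The members were then compared with each other over the 8 tumors, in 45 pairs, with exact permutation over all pairings and Benjamini-Hochberg adjustment. These relations ignore genotype, and the labels name no batch. Of the 45 pairs, 6 had an unadjusted Pearson p under 0.05 and 1 passed after adjustment. Tgfb2 and Smad4 ran opposite to each other (r = -0.94, exact p = 0.000446, adjusted p = 0.0201; Spearman rho = -0.95, exact p = 0.00114, adjusted p = 0.0513). Without tumors 1 and 5, the farthest from the Tgfb2 median, r was -0.87 with an adjusted exact p of 0.344 over 6 tumors. The pairings of 6 tumors are too few for a lone pair to pass after adjustment over 45 pairs.

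Tgfb1 and Smad7 ran together (r = 0.79, exact p = 0.0201, adjusted p = 0.226; rho = 0.88, exact p = 0.00724, adjusted p = 0.161), and r was 0.97 without tumors 1 and 8. Tumors 5 and 8 were the highest of the 8 for both genes. Tgfbr2 and Tgfbr3 also ran together (r = 0.84, exact p = 0.0131, adjusted p = 0.196; rho = 0.74, exact p = 0.0458, adjusted p = 0.344; r = 0.71 without tumors 1 and 4), and so did Smad2 and Smad4 (r = 0.85, exact p = 0.00578, adjusted p = 0.130; rho = 0.86, exact p = 0.0107, adjusted p = 0.161; r = 0.65 without tumors 2 and 5). None of these 3 pairs passed the adjusted threshold.

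The relations were computed again with the genotype means removed from both genes and tumors permuted within genotype (576 arrangements), a setting chosen after the values were seen. None of the 45 pairs then passed after adjustment, with 6 at an unadjusted p under 0.05. Tgfbr1 and Smad3 ran opposite to each other (r = -0.87, exact p = 0.00521, adjusted p = 0.117), where r was -0.33 with genotype ignored. Their rho was -0.88 (exact p = 0.0104, adjusted p = 0.234). Tgfb3 and Tgfbr2 ran together (r = 0.80, exact p = 0.0156, adjusted p = 0.176). For Tgfb2 and Smad4 r was -0.93 (exact p = 0.0122, adjusted p = 0.176; rho = -0.81, exact p = 0.0451, adjusted p = 0.406), close to its size before. Smad2 and Smad4 gave r = 0.86 (exact p = 0.00174, the smallest possible, adjusted p = 0.0781; rho = 0.93, exact p = 0.00347, adjusted p = 0.156). A pair that alone reached this smallest p could thus not pass, so the lost call of Tgfb2 and Smad4 decides nothing. Tgfb1 and Smad7, which both had higher means in HMMR-Tg tumors, gave a lower r of 0.61 (exact p = 0.135, adjusted p = 0.536; rho = 0.52, exact p = 0.253, adjusted p = 0.677).

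**Figure D4:**
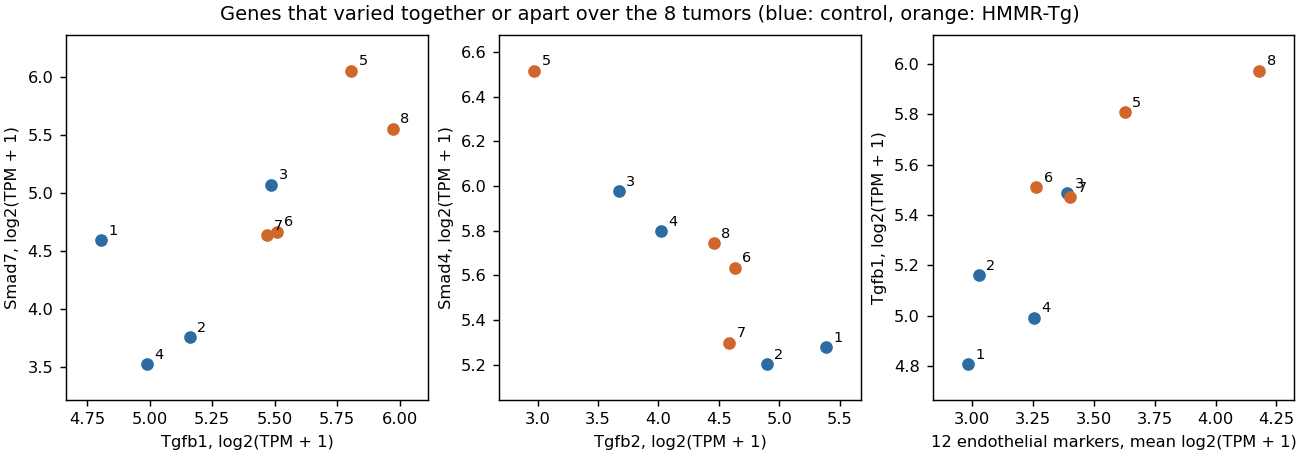
Levels in the 8 tumors on the log2(TPM + 1) scale (points: single tumors with their numbers; blue: control; orange: HMMR-Tg) for Smad7 against Tgfb1, Smad4 against Tgfb2, and Tgfb1 against the mean of 12 endothelial markers. The points rise together for Smad7 and Tgfb1 (r = 0.79) and for Tgfb1 and the endothelial markers (r = 0.87), and fall for Smad4 against Tgfb2 (r = -0.94).

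Markers of other cell types moved with some members. Each of the 12 endothelial markers was higher on average in HMMR-Tg tumors, 3 of them at an unadjusted limma p under 0.05 and 0 after adjustment. Of all tested genes, 1.62% were higher at an unadjusted p under 0.05. The endothelial markers summed to 116 to 171 TPM in control tumors and to 147 to 284 TPM in HMMR-Tg tumors. Tgfb1 followed their mean over the 8 tumors (r = 0.87, exact p = 0.00228, adjusted p = 0.137 over 60 relations; rho = 0.88, exact p = 0.00724, adjusted p = 0.435), and r was 0.79 without tumors 1 and 8. For Smad7 r was 0.69 (exact p = 0.0571, adjusted p = 0.571; rho = 0.81, exact p = 0.0218, adjusted p = 0.567; 0.87 without tumors 1 and 8), and for Smad3 it was 0.68 (exact p = 0.0525, adjusted p = 0.571; rho = 0.67, exact p = 0.0831, adjusted p = 0.567; 0.49 without tumors 1 and 8). With the genotype means removed, r with these markers was 0.78 for Tgfb1, 0.48 for Smad7 and 0.31 for Smad3 (exact p = 0.0122, 0.280 and 0.516, adjusted p of at least 0.729 for each). Pericyte and smooth muscle markers were higher on average for 11 of 12 (178 to 329 and 261 to 629 TPM summed), fibroblast markers for 10 of 12 (668 to 1392 and 696 to 3202 TPM) and macrophage markers for 11 of 12 (983 to 4117 and 1976 to 3450 TPM). Epithelial markers were higher for 5 of 12 and lower for 7 (3092 to 7552 and 2367 to 7034 TPM). No marker of these lists was at 0 in all tumors. What part of the Tgfb1, Smad3 and Smad7 differences goes with these markers was not tested.

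Of the 60 relations between the 10 genes and 6 list means, 4 had an unadjusted exact Pearson p under 0.05 and 0 passed after adjustment. Tgfbr3 ran opposite to macrophage markers (r = -0.78, exact p = 0.0194, adjusted p = 0.571; rho = -0.62, exact p = 0.115, adjusted p = 0.567), and this rested on tumors 1 and 4, without which r was -0.11. Tgfbr1 ran with the same markers (r = 0.70, exact p = 0.0384, adjusted p = 0.571; rho = 0.76, exact p = 0.0368, adjusted p = 0.567) and r was 0.35 without tumors 1 and 4. Tgfb1 ran with the mean of the TGF-beta target genes (r = 0.72, exact p = 0.0403, adjusted p = 0.571; rho = 0.69, exact p = 0.0694, adjusted p = 0.567), but r was 0.29 without tumors 1 and 8.

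Smad4, Smad7 and Smad2 lie within 2.67 megabases of each other on chromosome 18 (73798663 to 76465385), and were therefore set beside the tested genes within 5 megabases of each, members left out. This comparison was chosen after the values were seen and was made for all 10 genes. Around Smad2, 34 neighbours had a median deviation from their 8-tumor mean of -0.44 in tumor 2 and 0.41 in tumor 5 (log2), and Smad2 itself deviated by -0.58 and 0.68 in these tumors. Smad2 followed its neighbours (r = 0.89, exact p = 0.00203, adjusted p = 0.0203 over 10 relations; rho = 0.83, exact p = 0.0154, adjusted p = 0.154), with r = 0.80 without tumors 2 and 6 (adjusted p = 0.397) and r = 0.90 with a window of 2 megabases. The r was 0.75 for Smad4 (exact p = 0.0296, adjusted p = 0.0986; rho = 0.60, exact p = 0.132, adjusted p = 0.189; 0.29 without tumors 2 and 5) and 0.63 for Smad7 (exact p = 0.0896, adjusted p = 0.181; rho = 0.55, exact p = 0.171, adjusted p = 0.214; 0.58 without tumors 2 and 6). Other members ran opposite to their neighbours within 5 megabases: Tgfb3 (r = -0.62), Tgfbr1 (-0.54) and Tgfb2 (-0.36). For Tgfbr2 r was 0.59 and for Tgfb1 it was 0.35. The adjusted exact p was at least 0.18 for each of these genes. With a window of 2 megabases r was -0.60 for Tgfb3, -0.15 for Tgfb2 and 0.29 for Tgfbr1. The sign for Tgfbr1 thus depended on the window.

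With the genotype means removed, r with the neighbours was 0.89 for Smad2 (exact p = 0.0174, adjusted p = 0.130), which did not pass, and 0.89 for Smad3 (exact p = 0.0260, adjusted p = 0.130). Before that, r for Smad3 was 0.59 (exact p = 0.127, adjusted p = 0.181), and 0.03 without tumors 2 and 3. With the means removed it was 0.76 for Smad4, 0.72 for Smad7, 0.71 for Tgfbr3, 0.57 for Tgfbr2 and 0.23 for Tgfb1. It was -0.70 for Tgfb3, -0.57 for Tgfbr1 and -0.44 for Tgfb2. Of the 10 relations 0 passed after adjustment.

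The neighbours of the 3 genes with the smallest p were also compared between genotypes. The mean difference of the neighbour medians was 0.10 around Smad3 and 0.12 around Tgfb1, where the genes themselves differed by 0.64 and 0.58, and 0.07 around Smad7, which differed by 0.99. Around Tgfbr3 the neighbours differed by -0.49, and control tumor 4, with the highest Tgfbr3 level, had the highest neighbour median, 0.86. The r there was 0.78 (exact p = 0.0179, adjusted p = 0.0897; rho = 0.60, exact p = 0.132, adjusted p = 0.189; 0.45 without tumors 4 and 7). Chromosome 5 beyond 100 megabases was chosen because earlier work on these data found its genes deviating together in single tumors. Its values are therefore a description and no independent support. Over its 498 tested genes the median deviation was highest in tumor 4 (0.68) and lowest in tumor 6 (-0.54), the tumors with the highest and the lowest Tgfbr3. Other tumors did not match in this way: in tumors 1 and 8 Tgfbr3 deviated by 1.40 and 1.39 while the region stood at -0.0028 and -0.016, and in tumor 2 the region stood at 0.33 and Tgfbr3 at 0.13. The number of gene copies was not measured in these data.

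**Figure D5:**
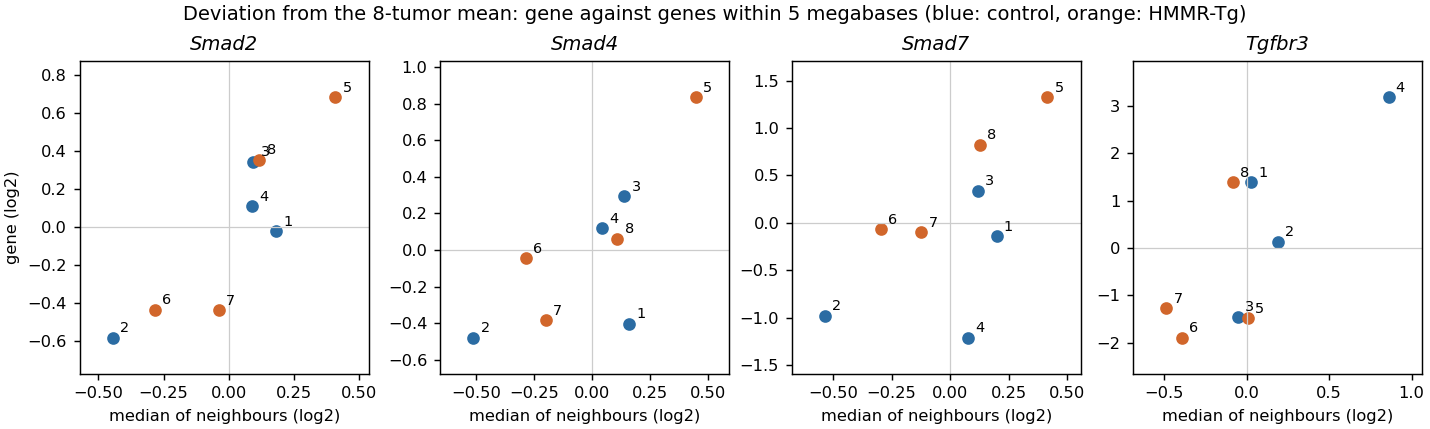
Deviation of Smad2, Smad4, Smad7 and Tgfbr3 from their mean over the 8 tumors (vertical, log2) against the median deviation of the tested genes within 5 megabases (horizontal, log2), with tumor numbers (blue: control; orange: HMMR-Tg). Tumor 5 is at the upper right for the 3 SMADs and tumor 4 for Tgfbr3, and Smad2 lies closest to a line (r = 0.89).

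The counts of this and the following lists stand beside shares of all tested genes. At an unadjusted limma p under 0.05, 1.62% of these were higher and 1.83% lower. Without overlap between genotypes, 1.04% were higher and 1.19% lower. The proteins that hold and release latent ligand form the step before the receptors. Of 21 such genes tested, 16 were higher and 5 lower on average in HMMR-Tg tumors, 1 was higher at an unadjusted p under 0.05 and 0 passed the test over all genes (limma, adjusted), with a median difference of 0.32 beside -0.01 over all genes. That gene was Mmp9, a gelatinase that can release latent ligand, with 5.44 ± 4.08 TPM in the controls and 11.7 ± 5.16 TPM in HMMR-Tg tumors (difference 1.11, SE 0.49). Next by p were the membrane protease Mmp14 (111 ± 34.1 and 163 ± 28.6 TPM, difference 0.60) and Itgav, the integrin alpha chain of the receptors that activate TGF-beta (55.5 ± 21.4 and 90.7 ± 34.5 TPM, difference 0.70), and all 3 overlapped between genotypes.

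Extracellular inhibitors of the family gave 12 tested genes, 9 higher and 3 lower on average, 0 at an unadjusted p under 0.05 and a median difference of 0.33. The BMP antagonist Grem1 was low in most tumors and highest in tumor 8 (8.08 TPM), and the secreted protease Htra3 differed by 0.48 (SE 0.33). Of the activin, nodal and GDF ligands 5 of 11 were tested, 4 higher and 1 lower on average with a median of 0.12. The lower one, Gdf3, stood at 4.83, 8.79, 5.03 and 3.71 TPM in control tumors and at 2.20, 2.72, 3.70 and 0.735 TPM in HMMR-Tg tumors. Every HMMR-Tg tumor was below every control, by a narrow gap between tumors 7 and 4 (difference -1.02, SE 0.38; limma, unadjusted p = 0.0227, adjusted p = 1.00). Inhba, the activin A subunit, ranged from 2.09 to 28.8 TPM with overlap, and Gdf15 was low at 0.275 to 4.14 TPM.

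The BMP branch was thinly expressed at the ligand level, with 5 of 14 ligands tested, 3 higher and 2 lower on average and a median of 0.35. Bmp4 had 3.74 ± 2.21 TPM in the controls and 1.47 ± 0.382 TPM in HMMR-Tg tumors (difference -0.83, SE 0.38), Bmp2 ranged from 0.261 to 25.3 TPM, and Bmp1, a protease that is named for this family but is not a ligand of it, ranged from 11.1 to 86.7 TPM. Other receptors of the family gave 11 tested genes, 7 higher and 4 lower, with a median of 0.10, led by Gpc3 (a surface proteoglycan, difference -1.16), the type I receptor Acvr1 (0.62) and the BMP receptor Bmpr1a (-0.30). The remaining SMADs gave 3 tested genes: Smad1 (0.41) and Smad5 (-0.12), which carry BMP signals, and the inhibitory Smad6 (0.33). In each of these 3 lists, 0 genes had an unadjusted limma p under 0.05.

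Intracellular regulators of SMADs and receptors gave 28 tested genes, 16 higher and 12 lower on average, with a median difference of 0.02. Only Skil was higher at an unadjusted p under 0.05. Skil encodes SnoN, a repressor that binds SMADs and is itself induced by the pathway, and it stood at 69.2, 72.3, 51.1 and 61.6 TPM in control tumors and at 96.7, 94.9, 99.8 and 77.8 TPM in HMMR-Tg tumors. Every HMMR-Tg tumor was above every control (difference 0.54, SE 0.19; limma, unadjusted p = 0.0199, adjusted p = 1.00). The phosphatase subunit Ppp1r15a (0.72) and the adaptor Dab2 (0.58) followed by p, both with overlap.

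Genes known as TGF-beta targets gave 42 tested genes, of which 35 were higher and 7 lower on average in HMMR-Tg tumors. At an unadjusted p under 0.05, 4 were higher and 0 were lower, and 0 passed after adjustment over all genes (limma). The median difference was 0.50. Skil was the 1 target that was higher without overlap between genotypes, and 1 other target was lower without overlap. Junb, an AP-1 subunit, stood at 192, 286, 222 and 128 TPM in control tumors and at 285, 323, 432 and 410 TPM in HMMR-Tg tumors (difference 0.84, SE 0.27, unadjusted p = 0.0114). The groups touched only through control tumor 2 and HMMR-Tg tumor 5. Cdkn1a, the cell cycle inhibitor p21 through which the pathway restrains growth, stood at 6.30, 30.7, 15.3 and 6.65 TPM in control tumors and at 46.5, 14.7, 49.7 and 36.5 TPM in HMMR-Tg tumors. HMMR-Tg tumor 6 was within the control range and the other 3 were above it (difference 1.40, SE 0.53, unadjusted p = 0.0260). Many of these targets are also made by fibroblasts and vessels, whose markers were higher on average in the same tumors, and the part of those cells in the list was not tested.

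AP-1 and other factors that bind with SMADs gave 19 tested genes, 18 higher and 1 lower on average, with a median of 0.47 and 3 at an unadjusted p under 0.05, all higher. Of all tested genes, 1.62% were higher at an unadjusted p under 0.05. Without overlap between genotypes, 2 of the 19 were higher, beside 1.04% of all tested genes. Foxo1, a forkhead factor that acts with SMADs on Cdkn1a, stood at 7.82, 11.48, 13.33 and 6.37 TPM in control tumors and at 29.0, 17.9, 16.4 and 18.8 TPM in HMMR-Tg tumors. All HMMR-Tg tumors were above all controls (difference 1.02, SE 0.30; limma, unadjusted p = 0.00672, adjusted p = 1.00). Runx3, a SMAD partner made mainly by lymphocytes and other leukocytes, differed by 0.94 (SE 0.42, unadjusted p = 0.0486) with overlap. The list shares Junb with the target list, and Skil, Ski, Pmepa1 and Ldlrad4 stand in both the target and the regulator list. The target list also shares Ltbp2 and Itgav with the latency list and Fstl3 with the inhibitor list. It shares Col1a1, Col1a2 and Col3a1 with the fibroblast markers, and Acta2 and Tagln with the pericyte and smooth muscle markers. Dcn is both an inhibitor and a fibroblast marker. The counts of these lists are therefore not separate observations.

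Among 12972 genes compared, those whose level over the 8 tumors was most like that of each member, by Pearson r of log2(TPM + 1), were named as a description with no test. For Tgfb1 they were Col15a1, Plaur and Sema6b, each at 0.97. Col15a1 is a basement membrane collagen of vessels and other tissues, and Plaur, the urokinase receptor, starts at 25247519 on chromosome 7, near Tgfb1. For Tgfb2 they were St8sia6 (0.96), Tmem47 (0.94) and Zfp560 (0.92), and for Tgfb3 they were Hey1 (0.96), a Notch target, Kctd17 (0.95) and Sema6a (0.94).

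For the receptors, the most alike genes were Pld2 (0.96), Slc25a11 (0.96) and Ch25h (0.95) for Tgfbr1, Crybb3 (0.98), Abca5 (0.96) and Pja2 (0.96) for Tgfbr2, and Rnft2 (0.98), Caskin1 (0.97) and Il17b (0.97) for Tgfbr3. Pld2 and Slc25a11 lie near each other on chromosome 11 (70353566 and 70457698), and Rnft2 lies on chromosome 5 (118640745), as Tgfbr3 does. For Smad2 they were Atp5b (0.98), Donson (0.98) and Cct8 (0.97), for Smad3 the proteasome subunit Psma4 (0.95), Lrp5 (0.94) and the chromatin remodeler Smarca4 (0.92), for Smad4 Rbm14 (0.99), Utp20 (0.96) and Rbms2 (0.95), and for Smad7 B4galt1 (0.96), Gstp2 (0.94) and Rapgef3 (0.94). Psma4 and Smarca4 lie on chromosome 9, as Smad3 does. Over 8 tumors these values rank genes and do not test them.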

How the data were processed

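The deposited TPM values were computed by the authors per gene and are not scaled between tumors; columns summed to between 994000.9 and 994984.0. The study's methods give TRIzol extraction, Kallisto and tximport on build mm9. The labels give an RNeasy kit, and the tools in the submitters' processing notes are bedtools, SAMtools 0.1.18 and STAR 2.4.0f1. Which route gave the table was not settled. Tumors were grouped by the title of their label. Coordinates of genes are those of mm9, and those of the promoter windows are of GRCm38.p6, so the 2 kinds of position cannot be set beside each other.

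Differences were tested with limma 3.58.1 (R 4.3.3, empirical Bayes with trend) on log2(TPM + 1) for the 14835 genes whose mean reached 1 TPM, adjusted by Benjamini-Hochberg with a threshold of 0.05, and by exact permutation; all tests were two-sided. A list mean is the mean log2(TPM + 1) of its tested genes. Correlations were computed with scipy 1.17.1 and numpy 2.4.6, tables with pandas 2.3.3 in Python 3.11.15, and plots with matplotlib 3.10.9.

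The members, the gene lists and the region of chromosome 5 were chosen with earlier results of these data known. Lists were written from general knowledge. Named genes were the 10 members, the 3 genes with the smallest p in each pathway list, and the 3 genes most like each member, with predicted genes, Rik genes and pseudogenes passed over; 1 extracellular inhibitor among them is not reported here. The alternatives changed the pseudocount (0.1 or 5), the filter (none, or a mean of 5 TPM), the scaling (quantile, median of ratios, or TPM without dominant tissue genes) and the moderation (no trend, robust, array weights), or left out 1 tumor or tumors 1, 3 and 6.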

Additional observations from a re-analysis of the deposited data

Results flagged for a closer look

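Within a genotype, 5 of 40 groups of 4 values, taken over the levels and shares of the 10 genes, held a tumor far from the other 3 by Dixon's criterion; chance flags about 1 in 20 groups. Tgfb2 was low in HMMR-Tg tumor 5 at 6.85 TPM, where the other 3 stood at 21.0 to 23.8 TPM. Tgfbr3 was high in HMMR-Tg tumor 8, both in level (28.6 TPM, with the other 3 at 2.03 to 3.67 TPM) and as a share of receptor TPM (32.1%, with the others at 3.43% to 5.19%). The Tgfb3 share of ligand TPM was low in control tumor 3 at 29.0%, with the others at 42.2% to 43.7%. The Tgfbr2 share of receptor TPM was high in HMMR-Tg tumor 6 at 51.8%, with the others at 38.6% to 40.0%. What set these tumors apart was not tested.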

How the results depend on the processing

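No member passed the adjusted threshold under any of 19 alternatives. The genes called higher, 9 as reported, were 6 to 10 with 1 tumor left out and 3 without tumors 1, 3 and 6. The genes called lower, 0 as reported, were 1 with a pseudocount of 0.1 and 0 to 1 with 1 tumor left out. The members at an unadjusted p under 0.05, 3 as reported, were 1 without tumors 1, 3 and 6 and 1 to 4 with 1 tumor left out; the 1 was Smad7 in the first case and Smad3 without control tumor 4 or HMMR-Tg tumor 5. Smad7 missed an unadjusted p of 0.05 with no filter, without trend and when TPM were rescaled without dominant tissue genes.

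With 1 tumor left out, the difference ran from -0.61 to 0.066 for Tgfb2, -0.37 to 0.0023 for Tgfb3, -0.17 to 0.31 for Tgfbr1, -0.14 to 0.24 for Smad2 and -0.0052 to 0.40 for Smad4, so their direction is not set by these data. The sign turned without tumor 5 for Tgfb2 and Smad4, without tumor 1 for Tgfb3, without tumor 1, 4, 5 or 7 for Tgfbr1 and without tumor 2, 5 or 8 for Smad2. Smad5 ran from -0.31 to 0.19, turning sign without tumor 6, and was 0.23 without tumors 1, 3 and 6. Tgfb1, Tgfbr2, Tgfbr3, Smad3 and Smad7 kept their direction under all 19. With the genotype means removed, the adjusted calls for Tgfb2 with Smad4 and for Smad2 with its neighbours were lost, as they were without the 2 farthest tumors. For Tgfb2 with Smad4 a lone pair could not have passed in either setting, so that loss decides nothing. No scaling moved the median of all genes by more than 0.06. The cause of these changes was not tested.

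No paired analysis was possible because tumors are numbered 1 to 8 over both genotypes and share no number. The precision is limited by 4 tumors a genotype, and TPM keep no depth.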
